A study of Homo sapiens with 6 samples.

Results

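Translation initiation and elongation factors are the soluble proteins that load ribosomes onto mRNA, choose the start codon and carry the peptide chain forward. Initiation begins when eIF2 brings the initiator tRNA to the small ribosomal subunit, held there with the large scaffold eIF3, while eIF4F binds the cap of the mRNA and unwinds its leader. The exchange factor eIF2B recharges eIF2 with GTP and is the target of stress signalling, eEF1 and eEF2 run elongation, and the kinase mTOR controls much of the machinery through 4E-BP proteins and S6 kinase. Members were taken from the gene names of the deposited table: names beginning with EIF1, EIF2B, EIF2S, EIF3, EIF4, EIF5, EIF6, EEF1, EEF2, PABPC, ETF1 or GSPT, together with EIF2A, GCN1, ABCE1, MTOR, RPTOR, RPS6KB1 and RPS6. Of 10515 rows, 69 carried such a name, 5 of them were EEF1A1 pseudogenes and were left out, and 64 genes remained. One of the 64 is Y-linked and was counted without showing its values.

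The cells were human bladder cancer lines with an FGFR3 fusion, labelled FGFR3-TACC3 in RT4 and RT112 cells and FGFR3-BAIBP2L1 in SW780 cells. Each line received DMSO or quisinostat, a pan-HDAC inhibitor, for 2 days, and RT4 cells had 50 nM, RT112 cells 10 nM and SW780 cells 25 nM. Dose, culture medium and line cannot be told apart, since RT4 cells grew in McCoy's 5A, RT112 in DMEM with L-glutamine and non-essential amino acids and SW780 in DMEM. There was 1 library of polyadenylated RNA per line and treatment, 6 in all, and a difference within a line therefore has no replicate check. Levels are FPKM, fragment counts scaled for transcript length and library size, and the response is the log2 ratio of quisinostat over DMSO within a line.

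The depth of the libraries is unknown, since no whole reads could be recovered from the FPKM values, and the median over 10066 assembled loci was between 6.59 and 7.39 FPKM. All 15 markers of bladder epithelium that were examined were in the table, 12 of them at 1 FPKM or more in every library, while UPK3A was at 0 in at least 1 library and UPK1A and FGFR3 reached down to 0.178 and 0.621 FPKM. Of 10 markers of blood, stromal and endothelial cells only COL1A1 was in the table, with at most 1.45 FPKM. The log2 ratios of all loci followed the GC content of the transcripts, with Spearman's rho of -0.50, 0.44 and -0.23 in RT4, RT112 and SW780 cells across 8258 loci. Values corrected for this trend are given beside many members, but not beside all whose direction or size differs with it.

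The share of RNA taken by translation factor genes was lower under quisinostat in all 3 lines. FPKM gives shares of a library, so less RNA of these genes and more RNA of others cannot be told apart, nor can less RNA per cell and fewer cells of a kind. The 63 genes with shown values made up 2.68% of the summed FPKM of all loci in RT4 cells under DMSO and 1.93% under quisinostat. In RT112 cells the share was 2.40% and 1.91%, and in SW780 cells 1.96% and 1.70%. EEF1A1 alone, the carrier of aminoacyl-tRNA, supplied 30.4% of the members' sum in untreated RT4 cells, and without it the shares were 1.87% and 1.39%, 1.78% and 1.45%, and 1.56% and 1.43% in the same order of lines.

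Ratios in all 3 lines could be formed for 61 members. The median over their log2 ratios was -0.27, -0.30 and -0.11 in RT4, RT112 and SW780 cells, where the medians of all 9112 loci were 0.08, 0.06 and 0.04. In RT4 cells 29 of 61 members had a log2 ratio below -0.3, the limit used in the study, against 33.5% of all loci, and 12 were above 0.3, against 40.3%. In RT112 cells 32 were below the limit, against 25.2%, and 6 above it, against 36% of loci. SW780 cells had 20 members below, against 28.2%, and 9 above, against 32.8%. The count of members above 0.3 was below the share of all loci in each of the 3 lines, a difference that was not tested. Most members are abundant genes, 54 with a mean of at least 10 FPKM, and among the 4020 loci at that level 32.6%, 27.5% and 26.0% were below -0.3 in RT4, RT112 and SW780 cells. At that level 35.7%, 25.0% and 25.3% were above 0.3.

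**Figure D1:**
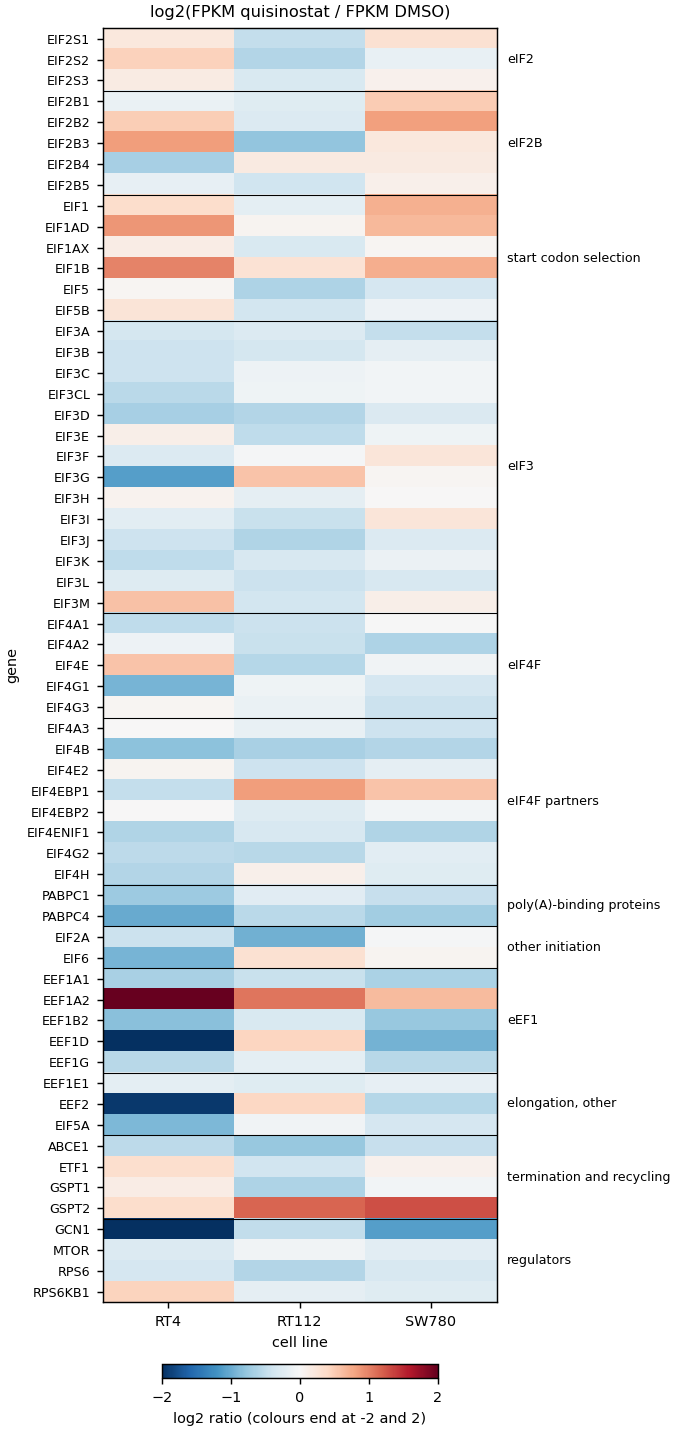
Log2 ratio of FPKM (quisinostat over DMSO) for the 61 members with values above 0 in all 6 libraries, 1 column per cell line and 1 row per gene, grouped by complex, with blue for lower and red for higher and colours ending at -2 and 2. Most eIF3, eIF4F and poly(A)-binding protein genes are blue in 2 or 3 lines, whereas the eIF2 genes are blue in RT112 cells and EEF1A2 and GSPT2 are red throughout.

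Below -0.3 in all 3 lines were 8 members, or 13.1% of 61, where 4.99% of all loci were. They are GCN1, PABPC4, EIF4B, EEF1B2, ABCE1, EEF1A1, EIF4ENIF1 and RPS6. Above 0.3 in all 3 lines were EEF1A2 and GSPT2, 3.28% of the members, where 11.4% of all loci were. Among the 4020 loci with a mean of at least 10 FPKM, 5.45% were below -0.3 and 6.92% above 0.3 in all 3 lines. EEF1B2, with -0.30 in RT112 cells, is the one nearest to the limit on the inside, and EIF3D, with -0.29 in SW780 cells, is the nearest outside it. The 3 quisinostat libraries all lay below the 3 DMSO libraries for 6 members, EEF1B2, EIF3B, EIF3D, EIF3J, EIF4B and GCN1, where 4.43% of loci did. All 3 lay above them for EIF1B only, where 6.18% of loci did.

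Many genes of the translation machinery begin their transcripts with a C and a run of pyrimidines, the 5′ terminal oligopyrimidine tract through which mTOR and LARP1 control translation. The RefSeq promoter table (GRCh38.p14) held 49 of the 61 members. In 11 of them (22.4%) the annotated first base was a C followed by at least 4 letters that are each C or T, read on the coding strand only. The share was 4.04% of all 27305 promoters in the table and 64.7% of 68 cytosolic ribosomal protein genes. The windows of these members are shown from 5 bases before the annotated start, in 30 bases, because EIF4B, EEF1A1 and RPS6 of the 8 genes lower in all lines are among them. Capitals mark the run, and a match at an annotated start is a description and not a mapped start site. The same holds for the lack of a match, which does not show that the transcripts of these cells lack a run.
EEF2, chr19:3985439-3985468, minus strand: gcgttCTCTTCCgccgtcgtcgccgccatc
EIF4B, chr12:53006451-53006480, plus strand: cgggtCTTTTgcgttctctttccctctccc
EEF1A1, chr6:73521008-73521037, minus strand: acgttCTTTTTCgcaacgggtttgccgcca
EIF3D, chr22:36529142-36529171, minus strand: gtttcCTCTTTTCCTggtttctcaagagtg
EIF2A, chr3:150546782-150546811, plus strand: ggtttCTCTTTCCgggacaacatggcgccg
RPS6, chr9:19380212-19380241, minus strand: tggccCTCTTTTCCgtggcgcctcggaggc
EIF4A2, chr3:186783572-186783601, plus strand: gctgtCTTTTCagtcgggcgctgagtggtt
EIF3K, chr19:38619183-38619212, plus strand: accacCTCTTCCTgttcccgtccttgagga
EIF3F, chr11:7987332-7987361, plus strand: gcctcCTTCTTTCTCgacaagatggccaca
EIF2S3, chrX:24054951-24054980, plus strand: ccttcCTCTTTTggcaacatggcgggcgga
EIF3M, chr11:32583826-32583855, plus strand: gttccCTTTTCCggtcggcgtggtcttgcg

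The sequences run from the 5-base tract of EIF4B to the 10-base tracts of EIF3D and EIF3F. The 11 members with a run had median log2 ratios of -0.43, -0.44 and -0.29 in RT4, RT112 and SW780 cells, and 9, 10 and 8 of them were below 0. The 38 without one had medians of -0.15, -0.29 and -0.09. Both groups overlapped widely in each line. EIF3M, with CTTTTCC at its start, was at 0.59 in RT4 cells, and EEF2, with CTCTTCC, ran from -1.92 in RT4 to 0.41 in RT112 cells. All ratios of this comparison are without the GC correction. After it EIF3M was at 0.05 in RT4 cells, and EEF2 was at -1.17, -0.15 and -0.36 in RT4, RT112 and SW780 cells. GCN1, ABCE1, EIF4ENIF1 and EEF1B2, all lower in each line, had no such run at their annotated start. Over all loci with a promoter entry, the 385 with a run had medians of -0.13, -0.08 and -0.04 and the 6116 without one 0.09, 0.06 and 0.04. No entry was matched for EEF1A2, EEF1D, EIF2S2, EIF3A, EIF3CL, EIF3E, EIF3G, EIF3H, EIF3L, EIF4EBP1, PABPC1 and PABPC4.

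**Figure D2:**
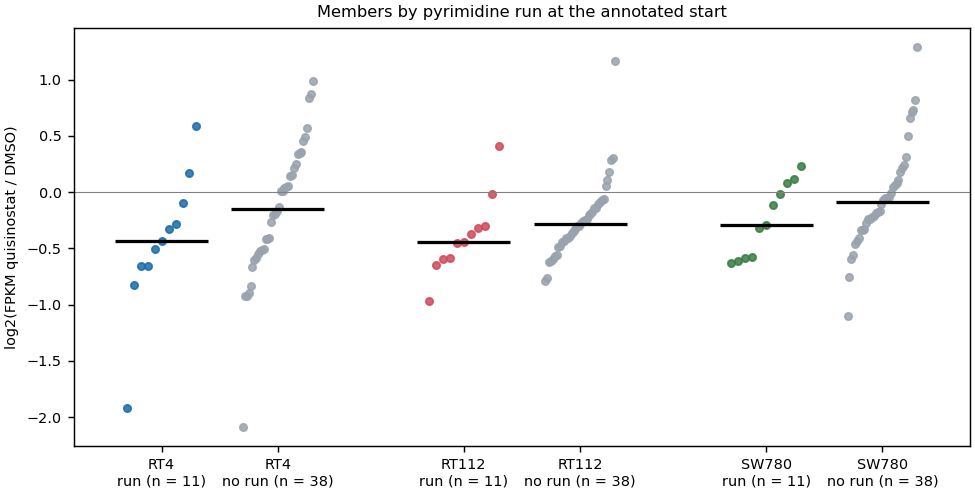
Log2 ratio of the 49 members with a RefSeq promoter entry in each cell line, split by whether the annotated start opens with a C and at least 4 further pyrimidines (coloured, 11 genes) or not (grey, 38 genes), with 1 point per gene and a black bar at the median. The bars of the coloured groups lie lower, at -0.43, -0.44 and -0.29 against -0.15, -0.29 and -0.09, and the points of both groups overlap. The ratios are without the GC correction.

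EIF4B, whose start carries the 5-base tract, is the cofactor that stimulates the eIF4A helicase. Its level in untreated RT4, RT112 and SW780 cells was 126, 118 and 103 FPKM, and under quisinostat it was 71.0, 75.7 and 69.1 FPKM. Untreated and treated libraries did not overlap, and the treated levels were alike in the 3 lines. The log2 ratios were -0.82, -0.64 and -0.58, and after the GC correction -1.06, -0.57 and -0.67. EIF4B lies on chromosome 12 of GRCh38 from 53006158 to 53042209 on the plus strand in GENCODE 29.

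GCN1, the ribosome-bound coactivator of the eIF2α kinase GCN2, had the lowest mean log2 ratio of the 61 members. It was at 69.8, 38.2 and 29.1 FPKM in untreated RT4, RT112 and SW780 cells and at 16.5, 27.2 and 13.6 FPKM after quisinostat. Every treated level was below every untreated one, and the difference was greatest in RT4 cells. Its log2 ratios were -2.09, -0.49 and -1.10. PABPC4, a cytoplasmic poly(A)-binding protein, went from 96.8 to 48.2 FPKM in RT4, from 68.4 to 46.9 in RT112 and from 44.6 to 27.4 in SW780 cells. The treated RT4 and RT112 cells remained above untreated SW780 cells, so the libraries overlapped although each line was lower. PABPC1, the main protein of this kind, was at 400.4, 493 and 186 FPKM under DMSO and at 242, 419 and 135 FPKM under quisinostat, with log2 ratios of -0.73, -0.23 and -0.46.

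ABCE1, the ATPase that splits ribosomes after termination, was at 25.4, 26.2 and 43.9 FPKM in untreated RT4, RT112 and SW780 cells and at 17.6, 15.5 and 31.8 FPKM in treated cells. SW780 cells held the most of it in both states. EIF4ENIF1, the eIF4E transporter of processing bodies, was low in every library. Its values were 4.55, 4.43 and 2.92 FPKM under DMSO and 3.0, 3.54 and 1.93 FPKM under quisinostat. RPS6, the ribosomal protein phosphorylated by S6 kinase, went from 442 to 352 FPKM, from 493 to 327 and from 171 to 137 in the same order of lines. Its SW780 levels lay below those of the other lines in both states, and its log2 ratios were -0.33, -0.59 and -0.32.

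**Figure D3:**
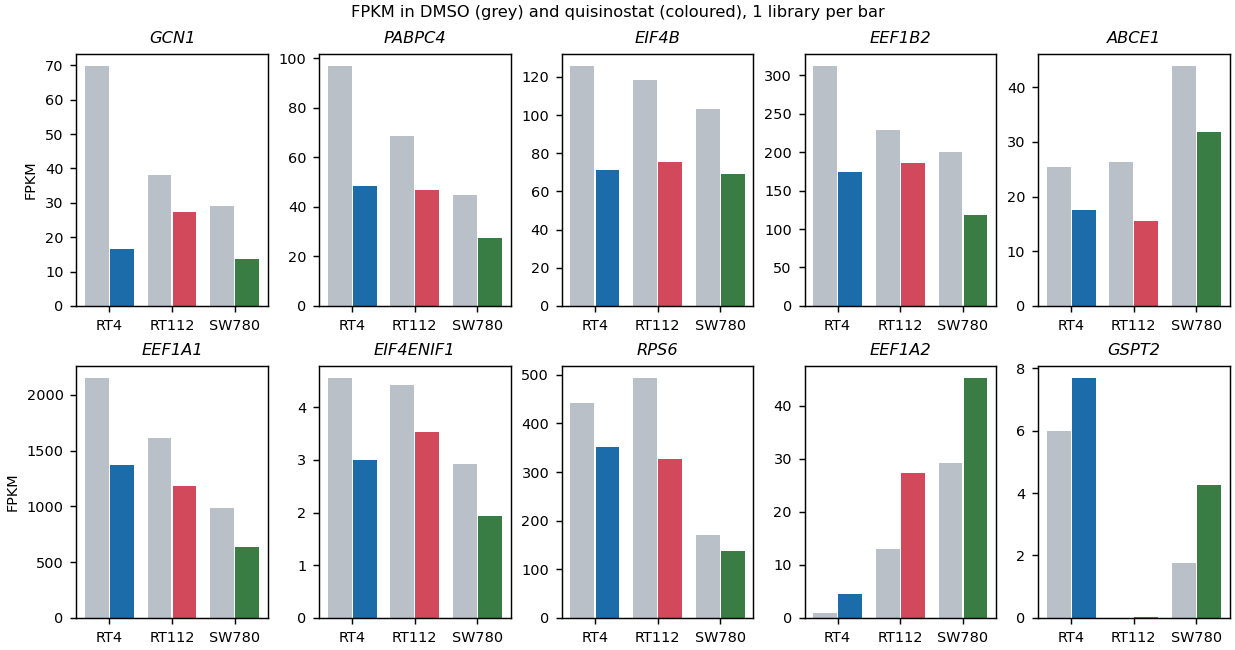
FPKM of the 8 members below -0.3 and the 2 above 0.3 in all 3 lines, 1 panel per gene with its own axis from 0 and 1 bar per library, grey for DMSO and coloured for quisinostat. The coloured bar is the shorter of each pair for the 8 genes and the taller for EEF1A2 and GSPT2, and the GSPT2 bars of RT112 cells, at 0.0113 and 0.0254 FPKM, are too low to see.

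In eIF2 the direction differed between RT112 and RT4 cells. Its 3 subunits were below their DMSO level in RT112 cells and above it in RT4 cells. EIF2S1, the α subunit that stress kinases phosphorylate, went from 31.8 to 22.8 FPKM in RT112 cells, from 30.4 to 35.4 in RT4 and from 33.5 to 41.5 in SW780 cells. EIF2S2, the β subunit, went from 75 to 50.2 FPKM in RT112, from 47.2 to 64.6 in RT4 and from 102 to 92.3 in SW780 cells. EIF2S3, the γ subunit that binds GTP and the initiator tRNA, had log2 ratios of 0.17, -0.30 and 0.08 in RT4, RT112 and SW780 cells. The median over the complex was 0.22, -0.48 and 0.08 in RT4, RT112 and SW780 cells, and after the GC correction it turned to -0.21 in RT4 and -0.03 in SW780 cells and was -0.31 in RT112 cells.

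The subunits of the exchange factor eIF2B differed from one another. In SW780 cells all 5 subunits had log2 ratios above 0, from 0.11 to 0.82, and in RT112 cells 4 of 5 were below 0. EIF2B2, the regulatory β subunit, went from 9.66 to 17.0 FPKM in SW780, from 8.57 to 12 in RT4 and from 9.34 to 7.73 in RT112 cells. EIF2B3, the γ subunit that pairs with the catalytic one, had the widest spread, from 3.0 to 5.35 FPKM in RT4, from 5.98 to 3.46 in RT112 and from 8.24 to 9.56 in SW780 cells. Its GC-corrected log2 ratios of 0.70, -0.77 and 0.15 kept that split. EIF2B1 was higher in SW780 cells alone, with 0.50 against -0.13 in RT4 and -0.24 in RT112 cells, and the corrected values were 0.41 in SW780, -0.41 in RT4 and -0.14 in RT112 cells. EIF2B4 was lower in RT4 cells, where its log2 ratio of -0.66 became -0.22 after the GC correction, and it had 0.18 in both other lines. The correction took it to -0.15 in RT112 and 0.28 in SW780 cells, and all 5 subunits were then below 0 in RT112 cells. EIF2B5, the catalytic subunit, had -0.17, -0.40 and 0.11 in RT4, RT112 and SW780 cells.

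Of the 6 genes of start codon selection, 3, 0 and 3 were above 0.3 in RT4, RT112 and SW780 cells, where 40.3%, 36% and 32.8% of all loci were, and 0, 3 and 1 were below -0.3. Their median in RT4 cells turned from 0.30 to -0.08 after the GC correction. EIF1B, a close paralog of the scanning factor EIF1, went from 23.1 to 45.9 FPKM in RT4, from 29.5 to 35.9 in RT112 and from 23.3 to 38.7 in SW780 cells. The 3 treated libraries were above the 3 untreated ones, and the log2 ratios were 0.99, 0.28 and 0.73. They were 0.61, 0.44 and 0.62 after the GC correction, under which EIF1B was the only member above 0.3 in all 3 lines. EIF1 itself was at 91.0, 89.5 and 62.1 FPKM under DMSO and at 115, 77.8 and 102 FPKM under quisinostat. EIF1AD, named for its eIF1A-like domain, had log2 ratios of 0.88, 0.05 and 0.66. EIF5, which triggers GTP hydrolysis by eIF2, had 0.04, -0.62 and -0.34, and EIF5B, the GTPase of subunit joining, had 0.25, -0.36 and -0.10. EIF1AX, which encodes eIF1A, had 0.15, -0.30 and 0.04. The corrected log2 ratios were -0.37, -0.45 and -0.46 for EIF5, -0.26, -0.19 and -0.26 for EIF5B and -0.50, -0.13 and -0.17 for EIF1AX, so all 3 were below 0 in each line after the correction.

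Most genes of the scaffold eIF3 were lower in RT4 and RT112 cells. Of its 14 genes, those below -0.3 were 8 in RT4 cells, against 33.5% of all loci, 8 in RT112 cells, against 25.2%, and 2 in SW780 cells, against 28.2%. Above 0.3 were 1, 1 and 0, against 40.3%, 36% and 32.8%. EIF3C (-0.41) and EIF3CL (-0.54) are both among the 8 of RT4 cells, and as near-identical copies of eIF3 they may share reads. Its medians of -0.38, -0.34 and -0.07 kept their sign under the other scalings and the GC correction. The interquartile range of its log2 ratios was 0.27, 0.32 and 0.28 in RT4, RT112 and SW780 cells, whereas that of loci with a mean of at least 10 FPKM was 0.99, 0.62 and 0.62. The range over the 14 genes in RT4 cells was nevertheless -1.10 to 0.59. Smaller interquartile ranges than that of eIF3 were found for eIF2 in each line (0.14, 0.14 and 0.23) and for eEF1 in SW780 cells (0.20). In RT112 cells they were also found for eIF2B (0.16) and eIF4F (0.31). The 2 poly(A)-binding protein genes had 0.14, 0.16 and 0.12. Each of these sets holds fewer genes than eIF3.

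**Figure D4:**
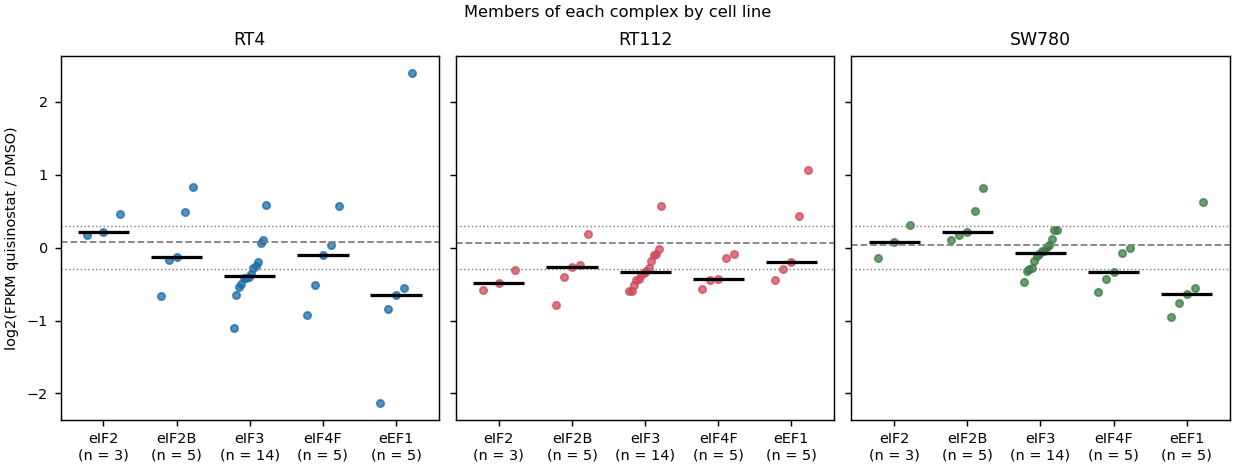
Log2 ratio of each member of eIF2, eIF2B, eIF3, eIF4F and eEF1 in the 3 cell lines, with 1 point per gene, a black bar at the median of the complex, a dashed line at the median of all loci and dotted lines at -0.3 and 0.3. The eIF2 bar lies at 0.22 in RT4 and at -0.48 in RT112 cells, most eIF3 points lie near their bar, and EEF1A2 is the top point of eEF1 in each panel.

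EIF3D, the eIF3 subunit able to bind the cap, was at 80.2, 117 and 78.8 FPKM in untreated RT4, RT112 and SW780 cells and at 50.9, 77.5 and 64.3 FPKM in treated cells. EIF3J, the loosely attached subunit at the mRNA entry, went from 30.6 to 22.9 FPKM, from 40.5 to 26.7 and from 32.0 to 26.4. EIF3B, the scaffold of the peripheral module, was at 90.8, 88.8 and 94.1 FPKM under DMSO, close to one another, and at 68.1, 69.7 and 83.1 FPKM under quisinostat. The untreated and treated libraries of these 3 genes did not overlap. After the GC correction EIF3D had -0.56, -0.67 and -0.29 in RT4, RT112 and SW780 cells and EIF3J -0.92, -0.43 and -0.44, whereas EIF3B had 0.01, -0.67 and -0.08 and so was no longer lower in RT4 cells. EIF3A, the largest core subunit, had log2 ratios of -0.36, -0.28 and -0.48, and -0.72, -0.12 and -0.58 after the correction. EIF3L of the same core had -0.26, -0.43 and -0.32. EIF3C and EIF3CL are near-identical copies on chromosome 16 and their values may share reads. Their summed FPKM had log2 ratios of -0.47, -0.10 and -0.05.

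Other eIF3 genes went separate ways. EIF3G, an RNA-binding subunit, went from 57.4 to 26.8 FPKM in RT4 and from 36.3 to 53.8 in RT112 cells and was at 24.4 and 25.1 in SW780 cells, and its GC-corrected log2 ratios were -0.30, -0.03 and 0.27. EIF3M went from 27.7 to 41.7 FPKM in RT4 and from 34.9 to 27.0 in RT112 cells, with corrected log2 ratios of 0.05 and -0.20. So the opposite signs of EIF3G between RT4 and RT112 cells were not present after the correction, and those of EIF3M lay within 0.3. EIF3K was the most abundant subunit gene in every library, from 159 to 347 FPKM, with log2 ratios of -0.51, -0.32 and -0.11. EIF3F was the least abundant in both RT112 and both SW780 libraries, from 9.20 to 10.8 FPKM, and was at 28.0 and 23.1 FPKM in RT4 cells. EIF3E had 0.11, -0.51 and -0.09, EIF3H had 0.07, -0.18 and 0.00, and EIF3I had -0.20, -0.44 and 0.24. In RT4 cells the correction took EIF3E to -0.41, EIF3H to -0.39 and EIF3F from -0.28 to -0.73.

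In the cap-binding complex eIF4F, every gene was below 0 in RT112 and SW780 cells, and the medians were -0.10, -0.43 and -0.33 in RT4, RT112 and SW780 cells. After the GC correction they were -0.41, -0.40 and -0.23, and 4 of the 5 genes were then below -0.3 in RT4 cells in place of 2. Before the correction 33.5% of all loci were below -0.3 in RT4 cells, and the corrected share is not given here. EIF4A1, at -0.004 in SW780 cells, and EIF4G3 lie at loci that carry other names too. Without the correction, the 3 genes at single-name loci had medians of -0.10, -0.45 and -0.33. EIF4E, the cap-binding subunit, was the least abundant of the 5 genes in every library. Its FPKM went from 3.70 to 5.48 in RT4 and from 3.31 to 2.24 in RT112 cells and was 5.24 and 4.98 in SW780 cells. The corrected log2 ratios of EIF4E were 0.07, -0.40 and -0.23, and the higher level in RT4 cells was then within 0.3. The rate of loading is often thought to depend on eIF4E and its inhibitors. EIF4EBP1, such an inhibitor and an mTOR substrate, went from 22.4 to 16.2 FPKM in RT4, from 14.7 to 26.2 in RT112 and from 38.9 to 57.9 in SW780 cells. Its transcript has a GC content of 65.5%, and the corrected log2 ratios were 0.86, -0.18 and 0.97, so its direction in RT4 and RT112 cells turned with the correction. EIF4EBP2 had 0.01, -0.26 and -0.05.

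EIF4G1, the main scaffold of eIF4F, went from 123 to 64.6 FPKM in RT4, from 112 to 105 in RT112 and from 94.8 to 75.2 in SW780 cells. Its log2 ratios of -0.93, -0.09 and -0.33 became -0.43, -0.45 and -0.21 after the correction. Its paralog EIF4G3 shares a locus with HP1BP3 in the table, and its values cannot be told apart from that gene. EIF4G2, which encodes the cap-independent homolog DAP5, went from 245 to 171 FPKM, from 112 to 75.9 and from 104 to 89.1. EIF4A1, the main helicase, went from 119 to 83.5 FPKM in RT4 and from 69.1 to 51.3 in RT112 cells and was at 132 in both SW780 libraries. Its locus carries the readthrough name SENP3-EIF4A1 as well. The paralog EIF4A2 went from 38.5 to 35.9 FPKM in RT4, from 84.9 to 62.2 in RT112 and from 35.9 to 23.4 in SW780 cells, with corrected log2 ratios of -0.54, -0.28 and -0.75. In SW780 cells EIF4A1 was thus at the same level in both states, while EIF4A2 was lower after quisinostat. The further cofactor EIF4H had log2 ratios of -0.58, 0.10 and -0.24, the repressive cap-binding homolog EIF4E2 had 0.06, -0.41 and -0.18, and the exon junction helicase EIF4A3 had 0.01, -0.14 and -0.41.

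Among the 61 members with ratios in all lines, elongation factor genes held both the lowest and the highest log2 ratio in RT4 cells, EEF1D at -2.13 and EEF1A2 at 2.40. EEF1A1 was the most abundant member in every library. Its level in RT4, RT112 and SW780 cells was 2149.6, 1612 and 981 FPKM under DMSO and 1367, 1186 and 633 FPKM under quisinostat. Each line was lower, and the treated RT4 and RT112 libraries still exceeded untreated SW780. The log2 ratios were -0.65, -0.44 and -0.63. EEF1A1 has many processed pseudogenes, and the 5 such rows left out had log2 ratios from -1.0 to -0.28. With those rows added, the log2 ratios of the sum were -0.69, -0.52 and -0.64.

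EEF1A2, the paralog known from muscle and neurons, had the opposite direction. It went from 0.869 to 4.58 FPKM in RT4, from 13.0 to 27.3 in RT112 and from 29.3 to 45.2 in SW780 cells. The untreated RT4 value is under 1 FPKM, and with 1 added to each FPKM the RT4 log2 ratio was 1.58 in place of 2.40. The lines keep their order, RT4 lowest and SW780 highest, in both states. Its transcript has the highest GC content of the members, 66.4%, and the corrected log2 ratios were 3.81, -0.01 and 1.05, so the higher level in RT112 cells was not present after the correction.

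The exchange factor subunits of eEF1 were lower in RT4 and SW780 cells without exception. EEF1B2 went from 312 to 175 FPKM in RT4, from 228 to 185 in RT112 and from 200.3 to 119 in SW780 cells, so treated and untreated libraries did not overlap. EEF1G went from 257 to 176 FPKM, from 185 to 162 and from 175 to 119, at a locus that also carries the name AP002990.1, and its corrected log2 ratios were -0.20, -0.46 and -0.48. EEF1D went from 16.1 to 3.68 FPKM in RT4, from 12.1 to 16.2 in RT112 and from 7.58 to 3.93 in SW780 cells. Its corrected log2 ratios were -1.07, -0.37 and -0.63, lower in each line. EEF2, the translocation GTPase, had a like pattern, from 394 to 104 FPKM in RT4, from 198 to 263 in RT112 and from 83.1 to 55.9 in SW780 cells, with corrected log2 ratios of -1.17, -0.15 and -0.36. EIF5A, the hypusinated factor that relieves stalled ribosomes, had -0.89, -0.07 and -0.33, and -0.41, -0.43 and -0.21 after the correction. Its paralog EIF5A2 was listed at 0 in all RT112 and SW780 libraries and at 0.319 and 2.67 FPKM in RT4 cells. EEF1E1, a member of the multi-synthetase complex that shares its locus with TXNDC5, had -0.19, -0.24 and -0.17.

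Termination factors varied by line. ETF1, which encodes the release factor eRF1, had log2 ratios of 0.34, -0.39 and 0.08 and corrected ones of -0.01, -0.24 and -0.02, all within 0.3. GSPT1, which encodes its partner eRF3a, went from 39.2 to 25.6 FPKM in RT112 cells and had log2 ratios of 0.14 and -0.06 in RT4 and SW780 cells, which the correction took to -0.29 and -0.19. GSPT2, the eRF3b paralog, was low, with 5.99 and 7.68 FPKM in RT4, 0.0113 and 0.0254 in RT112 and 1.75 and 4.27 in SW780 cells. Its ratio in RT112 cells rests on values near 0, and with 0.1 added to each FPKM it was no longer above 0.3 in all lines. In RT4 cells its log2 ratio of 0.36 became 0.06 after the GC correction.

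The growth-signalling genes went separate ways. MTOR was at 9.06, 9.02 and 16.2 FPKM in untreated RT4, RT112 and SW780 cells and at 7.52, 8.61 and 14.0 FPKM in treated cells, and none of its 3 ratios was past the limit. RPS6KB1, which encodes S6 kinase 1, had log2 ratios of 0.45, -0.18 and -0.24, and the first became -0.08 after the GC correction. RPTOR, the mTORC1 scaffold, was listed at 0 in both SW780 libraries, at 4.23 and 0.894 FPKM in RT4 and at 0.0804 and 1.51 FPKM in RT112 cells. EIF6, which keeps the large subunit from joining early, had -0.92, 0.30 and 0.06, and -0.36, -0.11 and 0.21 after the correction, at a locus it shares with MMP24-AS1. EIF2A, an initiator tRNA-binding protein distinct from eIF2, went from 66.7 to 34.2 FPKM in RT112 cells and had log2 ratios of -0.43 in RT4 and -0.02 in SW780 cells, with -0.90 and -0.16 after the correction.

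Ratios between related genes within a library do not depend on that library's scaling, but they do depend on the GC correction where the genes differ in GC content. The ratio of EEF1A2 to EEF1A1 was higher under quisinostat in each line, by 3.05, 1.51 and 1.26 on the log2 scale in RT4, RT112 and SW780 cells. With 1 added to each FPKM the differences were 2.23, 1.46 and 1.24. After the GC correction the differences were 4.72, 0.34 and 1.78. PABPC4 was lower relative to PABPC1 in each, with log2 differences between quisinostat and DMSO of -0.28, -0.31 and -0.24. The mean was -0.28 with an SD of 0.034 over the 3 lines, and the corrected differences of -0.11, -0.41 and -0.20 had the same sign and a wider SD of 0.155. For EIF4A2 relative to EIF4A1 they were 0.41, -0.02 and -0.61, with opposite signs in RT4 and SW780 cells, but -0.14, 0.24 and -0.75 after the correction. In untreated cells that ratio was 0.324, 1.23 and 0.272 in RT4, RT112 and SW780 cells, and RT112 was the one line with more EIF4A2 than EIF4A1. The ratio of EIF4EBP1 to EIF4E went from 6.05 to 2.95 in RT4, from 4.45 to 11.7 in RT112 and from 7.42 to 11.6 in SW780 cells. The log2 differences of -1.04, 1.39 and 0.65 became 0.79, 0.21 and 1.20 after the correction, so the direction in RT4 cells turned. The log2 difference of EIF1B relative to EIF1 was 0.64, 0.48 and 0.02, that of EIF4G3 relative to EIF4G1 0.96, -0.05 and -0.10, and that of EIF4G2 relative to EIF4G1 0.41, -0.47 and 0.12. The corrected values were 0.51, 0.56 and 0.00089 for EIF1B, 0.12, 0.46 and -0.32 for EIF4G3 and -0.45, 0.05 and -0.11 for EIF4G2, whose direction thus turned in all 3 lines, while that of EIF4G3 turned in RT112 cells. For EIF4EBP2 relative to EIF4E it was -0.56, 0.30 and 0.03, and for GSPT2 relative to GSPT1 0.22, 1.77 and 1.34. EIF4A1 and EIF4G3 lie at loci with other names, so the differences of their pairs cannot be assigned to these genes alone.

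GC content of the transcript moved with the log2 ratios of the members too. Across the 61 members, GC content and log2 ratio had a Spearman's rho of -0.57, 0.48 and -0.13 in RT4, RT112 and SW780 cells, and Pearson's r was -0.38, 0.56 and -0.09. These are descriptions across genes of the same libraries. Of the 20 members with the highest GC content (52.2% to 66.4%), 17, 6 and 7 were below -0.3 in RT4, RT112 and SW780 cells. Of the 20 with the lowest (35.1% to 43.1%), 5, 15 and 4 were. Of all loci 33.5%, 25.2% and 28.2% were, and the shares of loci with a like GC content are not given here. The median of all loci in RT4 cells was -0.26 around 55% GC and -1.33 around 65%. In RT112 cells it was -0.18 around 39% GC. Whether this trend belongs to the cells or to the libraries was not tested. After the correction the median over the members was -0.34, -0.28 and -0.21 in RT4, RT112 and SW780 cells, and 33, 29 and 21 members were below -0.3 (corrected share of all loci per line not given here). Those below it in all 3 lines were then 12, against 7.73% of the 8407 loci with a GC value: EEF1D, EIF3J, EIF3L, EIF4G2 and EIF5 were added, and EEF1B2, at -0.27 in RT112 cells, dropped out.

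**Figure D5:**
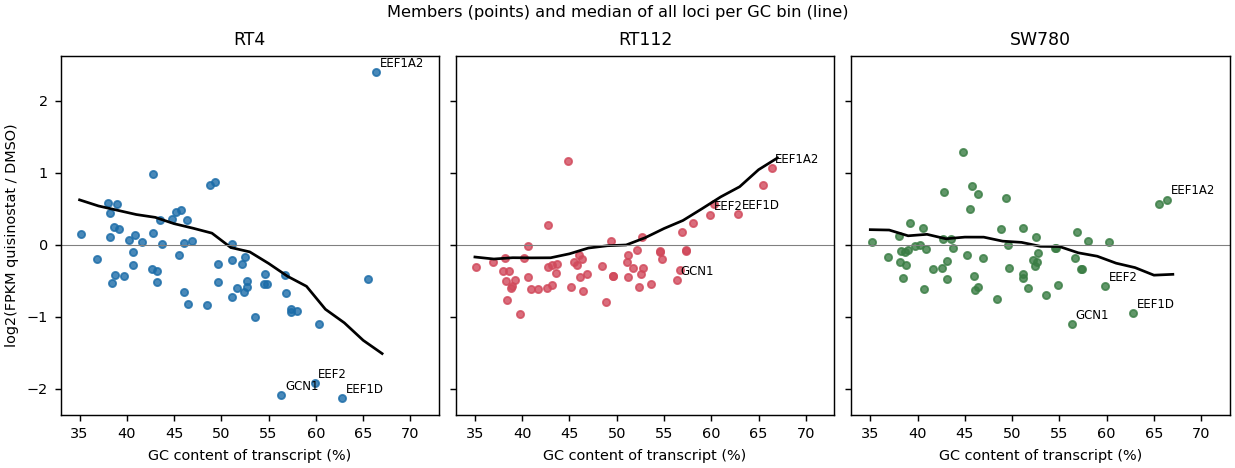
Log2 ratio of the 61 members (points) against the GC content of the transcript in percent, in 3 panels for the cell lines, with the median of all loci per 2-point GC bin as a line. Members follow the line down in RT4 and up in RT112 cells, and EEF2, EEF1D and GCN1 lie below it in all panels, at -1.92, -2.13 and -2.09 in RT4 cells.

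A list of 51 other translation control genes (eIF2α kinases, regulators of mTOR and of poly(A)-binding proteins, rescue factors and modifying enzymes) was set beside the members, and 46 had ratios in all lines. Below -0.3 were 13 in RT4 cells, against 33.5% of all loci, 12 in RT112 cells, against 25.2%, and 8 in SW780 cells, against 28.2%. Above 0.3 were 17, 11 and 13 in the same order, against 40.3%, 36% and 32.8%. None was below -0.3 in all 3 lines, where 4.99% of loci were, and 3 were above 0.3 in all, where 11.4% were. These were EIF2AK3, the eIF2α kinase of the unfolded protein response, PAIP2B, an inhibitor of poly(A)-binding protein, and PELO, a ribosome rescue factor. EIF2AK3 went from 8.17 to 20.4 FPKM in RT4, from 6.64 to 8.55 in RT112 and from 4.99 to 6.86 in SW780 cells. PAIP2B went from 0.346 to 3.20 FPKM, from 0.556 to 1.24 and from 0.702 to 2.84. PELO went from 1.33 to 3.98 FPKM, from 1.82 to 2.43 and from 2.66 to 4.75. Each of the 3 was also above 0.3 in all lines after the GC correction. LARP1, which binds oligopyrimidine tracts, had -0.37, -0.28 and -0.45.

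With the 3 lines as replicates, limma on log2(FPKM + 1) with the cell line as a block called none of 62 members and none of 9430 loci (0%) at a Benjamini-Hochberg adjusted p of 0.05. At an unadjusted p under 0.05 there were 10 members lower, where 4.16% of loci were, and 2 higher, where 9.68% were. The smallest adjusted p among the members was that of EEF1A2, with a log2 fold change of 1.07 on the log2(FPKM + 1) scale (standard error 0.25, limma adjusted p = 0.262, higher in 3 of 3 lines). EIF4B had a log2 fold change of -0.68 (standard error 0.16, limma adjusted p = 0.274, lower in 3 of 3 lines), and PABPC4 -0.74 (standard error 0.18, limma adjusted p = 0.278, lower in 3 of 3 lines). For GCN1 it was -1.18 (standard error 0.32, limma adjusted p = 0.294, lower in 3 of 3 lines). The others under an unadjusted p of 0.05 were EEF1B2, EEF1A1, ABCE1, EIF3D, PABPC1, EIF4G2 and EEF1G, lower, and EIF1B, higher. There were 2 residual degrees of freedom, and doses differ by line. The standard errors combine the spread of a gene's response over the lines with a variance that limma estimates from all loci. They do not measure the error within a line.

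Before treatment the lines already differed in several factors. Over the 61 members above 0 in all 3 DMSO libraries, the highest level exceeded the lowest by a median of 1.72-fold, and by over 2-fold for 22. SW780 cells were the lowest line for 13 of these 22 and RT4 cells for 7. EEF2 went from 83.1 FPKM in SW780 to 394 in RT4 cells, 4.75-fold, and RPS6 from 171 in SW780 to 493 in RT112 cells, 2.88-fold. EEF1A2 was 33.7-fold higher in untreated SW780 than in untreated RT4 cells, where it was at only 0.869 FPKM. The most even member was EIF3B, with 1.06-fold between the lines. Each of these is a single library, and the differences were not tested.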

How the data were processed

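The 6 libraries were 1 for each of 3 cell lines and 2 treatments. Per the labels, the methods and the submitters' processing notes, the authors made stranded poly(A) libraries, sequenced them on an Illumina NovaSeq, and used CASAVA 1.8.2, Trimmomatic 0.36, HISAT2 2.2.1, SAMtools 1.15.1, StringTie 2.2.1 and Ballgown with GRCh38. The annotation release and the choice of rows are not given in the sources used here. The deposited values are FPKM, not read counts, so the depth is unknown. One label of the SW780 quisinostat library misspells the line, and its title was used.

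One value per assembled locus was kept. Log2 ratios used no pseudocount and the loci above 0 in all 6 libraries. The GC correction subtracted a lowess curve (span 0.3) on the GC content of the longest coding transcript in GENCODE 29, known for 92.3% of these loci. limma 3.58.1 in R 4.3.3 used log2(FPKM + 1), only loci whose FPKM averaged 1 or more, the trend option and adjustment by Benjamini-Hochberg. The step was tested on simulated data and recovered the planted changes in most loci. Those changes were larger than the limma fold change of any member, and the simulated noise was smaller than that of the data. The test therefore cannot say whether changes of the members' size would be called. Pairing comes from the design, since both libraries of a pair are the same cell line. Python 3.11.15 was used for the rest.

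The members, lists and alternatives were chosen with earlier results of these data known. Named were all members of the 5 complexes, members past 0.3 in all lines, the 5 strongest in each direction by the weakest ratio, fixed paralog pairs and signalling genes. The few remaining members were named as well, after their values were seen, so that all 63 with shown values appear. EEF2K, of 1 pair, was not found among the names. Added after the data were seen were the sums over copies, the GC correction within limma and of the pairs, the 10 FPKM level and the pyrimidine run.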

Additional observations from a re-analysis of the deposited data

Results flagged for a closer look

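Opposite directions in different lines, with a log2 ratio below -0.3 in 1 line and above 0.3 in another, were found for 10 of 61 members, where 29.3% of all loci showed them. These differences were not tested, since each line has 1 library per treatment and its own dose. The values follow in the order RT4, RT112 and SW780. Lower in RT4 and higher in RT112 cells were EEF1D (-2.13, 0.43 and -0.95), EEF2 (-1.92, 0.41 and -0.57), EIF3G (-1.10, 0.57 and 0.04) and EIF4EBP1 (-0.47, 0.83 and 0.57). Their transcripts have GC contents of 62.8%, 59.9%, 60.3% and 65.5%. Higher in RT4 and lower in RT112 cells were EIF2B3 (0.84, -0.79 and 0.21), EIF2S2 (0.45, -0.58 and -0.14), EIF3M (0.59, -0.37 and 0.12), EIF4E (0.57, -0.57 and -0.07) and ETF1 (0.34, -0.39 and 0.08). Their GC contents lie between 38% and 48.8%. EIF2S1 was lower in RT112 and higher in SW780 cells (0.22, -0.48 and 0.31). After the GC correction only EIF2B3 of the 10 was past the limit in opposite directions, with 0.70 in RT4 and -0.77 in RT112 cells.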

How the results depend on the processing

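The number of members lower in all 3 lines was 8, where 4.99% of loci were, and stayed within 1.5 times of it in the following runs. With pseudocounts of 1 and 0.1 it was 6 and 7, where 3.67% and 4.44% of loci were. It was 12 with centring (6.37% of loci), 7 with a common FPKM sum (4.53%) and 12 with the GC correction (7.73%). It was 8 for single-name loci (4.97%) and 8 with copies summed. EIF4B, PABPC4, GCN1, ABCE1 and EEF1A1 were in each of those sets. At a limit of 0.5 the number was 2, and the share of loci at that limit is not given here. Using only 2 of the 3 lines, the counts ran from 11 to 15 lower and from 2 to 6 higher. Without RT112 they were 15 and 6, where 17.9% and 23% of loci passed, without SW780 15 and 2 (8.18% and 15.9%) and without RT4 11 and 3 (9.49% and 15.9%). The number higher in all 3 lines was 2 and became 1 with either pseudocount, with centring, with the GC correction and at a limit of 0.5. After the GC correction the members above 0.3 were 5 in RT4 and 2 in RT112 cells, and the other translation control genes above it 9 and 5. The corrected shares of all loci above 0.3 in these lines are not given here. Of those other genes, 2 were below -0.3 in all lines after centring (LARP1 and LARP4B) and 1 after the GC correction. limma called no member under any of its alternatives. At an unadjusted p under 0.05 the members lower were 2 without the replicate block (1.12% of loci) and 2 without SW780 (0.785%). They were 5 without RT4 (2.55%) and 6 without the trend (3.52%). They were 20 with the GC correction, where 10.7% of loci were, and 10 with the settings of the report, where 4.16% were. Medians of the 5 complexes, averaged over lines, moved by less than their SD over the lines under each alternative run. That SD is wide where the lines differ, so this is a weak check of stability. The eIF2 value, with an SD of 0.37, went from -0.06 to -0.18 with the GC correction and to 0.15 without RT112. The mean differences of the paralog pairs, run with a pseudocount and with the GC correction, also moved by less than their SD, with 1 exception. PABPC4 relative to PABPC1, the pair with the smallest SD (0.034), moved from -0.28 to -0.24 with the correction. EIF4G2 relative to EIF4G1 stayed within its SD of 0.45 although its direction turned in each line. Unknown depth leaves values under 1 FPKM (GSPT2, RPTOR, EIF5A2, and EEF1A2 in untreated RT4 cells) without an error. The causes were not tested.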
